A study of Homo sapiens with 13 samples.

Results

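The genes described here encode the KMT2A fusion machinery of leukemia and its best known targets: KMT2A, MLLT1, MLLT3, AFF1, AFF4, MEN1, PSIP1, DOT1L, MEIS1 and PBX3. They were chosen by name, all 10 were found among the 20033 protein-coding genes of GENCODE version 44 on the main hg38 chromosomes, and every PTBP1 or RUNX1 peak in a gene or within 10 kb either side of it was taken. The cells were MOLM-13, an established acute myeloid leukemia line that carries a KMT2A-MLLT3 fusion and for which the labels name no treatment. RUNX1, a transcription factor of blood cell formation, and PTBP1, an RNA-binding protein best known for its role in splicing, were mapped on chromatin by antibody. In CUT&Tag the antibody brings a transposase that tags nearby DNA, and in CUT&RUN it brings a nuclease. The series held 13 libraries, of which CUT&Tag had 2 biological replicates for each of PTBP1 and RUNX1 and 1 IgG control, while CUT&RUN had 2 replicates for each of PTBP1, RUNX1, H3K27me3 and IgG. The values here come from 1 PTBP1 and 1 RUNX1 peak list, taken as CUT&Tag, so there is no spread between replicates, no test between libraries, and intervals cover counting error only.

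In normal cells KMT2A is a histone H3K4 methyltransferase held at promoters with the help of menin and LEDGF. A chromosomal translocation joins its amino-terminal part to a partner such as MLLT3, and the partner brings the super elongation complex and the H3K79 methyltransferase DOT1L to KMT2A-bound genes. In leukemia with such a fusion, the homeodomain factors MEIS1 and PBX3 and the HOXA genes are known to be kept on. The peak lists hold positions on the reference genome, so the normal and the fused copy of KMT2A or MLLT3 cannot be told apart.

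PTBP1 peaks were found at 7 of the 10 genes, beside 39.4% of all protein-coding genes, and RUNX1 peaks likewise at 7 of 10, beside 36.8%. Both lists had a peak at 6 of the 10 genes, namely KMT2A, MLLT1, AFF1, AFF4, DOT1L and PBX3, beside 29.5% of all protein-coding genes. MEN1 had a PTBP1 peak alone and PSIP1 a RUNX1 peak alone. MLLT3 and MEIS1 had no peak of either list, as did 53.3% of all protein-coding genes. In all there were 17 PTBP1 and 10 RUNX1 peaks, of which DOT1L alone held 9 and 3, and without it 8 and 7 remain. The genes are long, with a median of 89.3 kb against 27.5 kb for all protein-coding genes, and 9 of 10 are longer than that median. Among the 4134 protein-coding genes at least as long as AFF4 (88.2 kb), 32.0% had a PTBP1 peak and 39.1% a RUNX1 peak, and among the 15900 at least as long as MEN1 (7.79 kb), 40.5% and 39.0%. The part of gene length in the counts was not tested.

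The strength of a peak is given as the deposited fold enrichment, the ratio of DNA fragments at the summit to the background set by the peak caller, each with 1 added. The number of fragments at the summit follows from that ratio and the deposited significance. The median fold enrichment at the 10 genes was 13.4 for PTBP1 (range 8.14 to 76.7) beside 12.2 over all 9370 PTBP1 peaks, and 14.7 for RUNX1 (range 8.27 to 60.2) beside 15.0 over all 7688 RUNX1 peaks. PTBP1 summits held 13 to 131 fragments (median 22, whole list 21) and RUNX1 summits 10 to 79 (median 18.5, whole list 20). The peaks at these genes were thus of ordinary height as a group, with the tallest ones at DOT1L or in its 3′ flank. None of them lay over a raised background, which was 0.720 fragments at every PTBP1 peak and 0.330 at every RUNX1 peak described here.

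**Figure D1:**
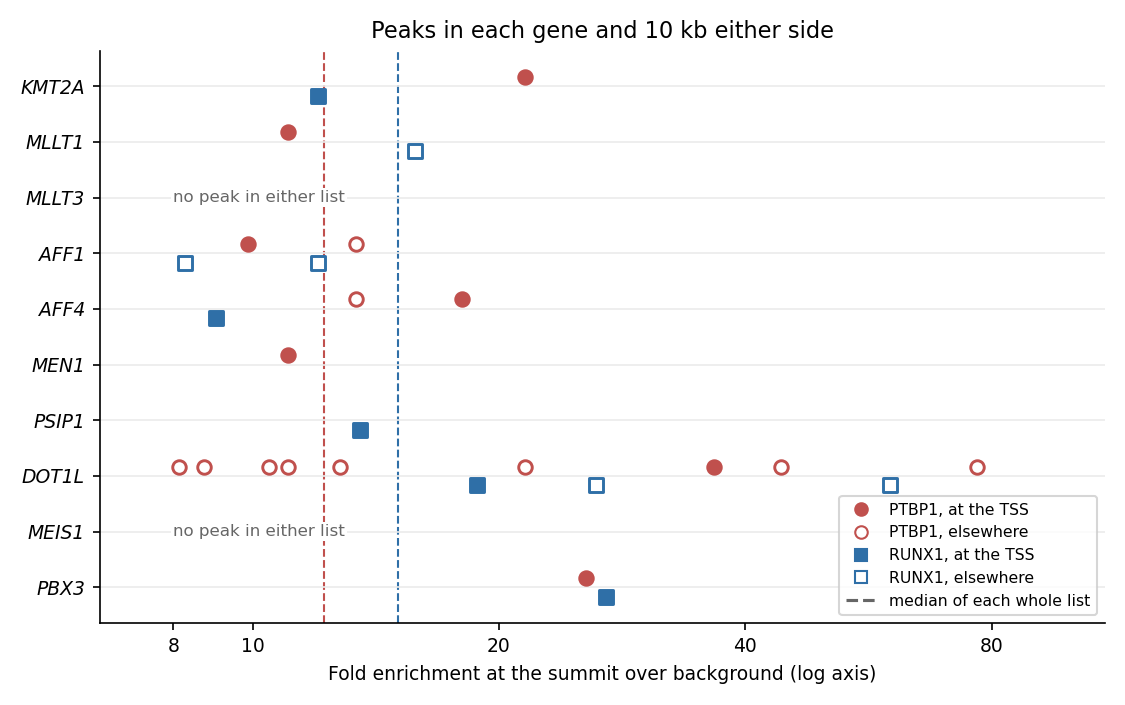
Fold enrichment at the summit (log axis) of every PTBP1 peak (circles) and RUNX1 peak (squares) in each gene or within 10 kb of it, filled where the peak is at the TSS, with the median of each whole list as a dashed line. DOT1L holds 9 of the 17 PTBP1 peaks and 3 of the 10 RUNX1 peaks, including the highest PTBP1 and RUNX1 values among these peaks, 76.7 and 60.2, and MLLT3 and MEIS1 hold none. The peak at 76.7 lies past the 3′ end of DOT1L, at the TSS of PLEKHJ1 and SF3A2, and is counted at DOT1L by distance only.

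RUNX1 binds a short motif, so the DNA under the RUNX1 summits is shown for the 3 strongest outside UTRs (DOT1L intron 1, PBX3 and MLLT1 intron 1), for KMT2A itself, and for PSIP1, the only RUNX1 summit of these genes with the motif within 50 bases. Except for PSIP1, which the naming rule selects, these windows were chosen after their values were seen. Each window has 101 bases of hg38 centred on the summit and reads 5′ to 3′ on the strand of the gene. Capitals mark TGTGGT or TGCGGT, sought on both strands, and a window without capitals holds neither.
DOT1L intron 1, chr19:2168892-2168992, plus strand: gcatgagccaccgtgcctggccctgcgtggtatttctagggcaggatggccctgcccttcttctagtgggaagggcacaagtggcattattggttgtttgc
PBX3 upstream, chr9:125746402-125746502, plus strand: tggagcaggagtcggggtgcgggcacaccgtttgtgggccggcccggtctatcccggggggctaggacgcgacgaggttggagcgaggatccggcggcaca
MLLT1 intron 1, chr19:6273968-6274068, minus strand: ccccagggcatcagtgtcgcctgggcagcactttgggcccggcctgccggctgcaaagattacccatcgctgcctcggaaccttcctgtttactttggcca
KMT2A upstream, chr11:118436317-118436417, plus strand: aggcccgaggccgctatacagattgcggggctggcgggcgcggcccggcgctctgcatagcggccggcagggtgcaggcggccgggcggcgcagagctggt
PSIP1 upstream, chr9:15511119-15511219, minus strand: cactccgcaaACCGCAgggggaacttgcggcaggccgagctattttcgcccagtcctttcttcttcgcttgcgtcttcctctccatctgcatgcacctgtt
In PSIP1 the letters are TGCGGT on the strand opposite to the gene, starting at position 11 of the window, with their centre 37 bases from the summit. The KMT2A window holds 14 CpG dinucleotides and is 77.2% G and C, whereas the DOT1L intron 1 window holds 2 CpG and is 57.4% G and C. The strongest RUNX1 summit of these genes, in DOT1L intron 1, thus had fewer CpG in its window than any TSS summit. The TSS windows held from 7 CpG at PSIP1 to 14 at KMT2A. In G and C the DOT1L intron 1 window equalled that of PSIP1, at 57.4%, and it held no motif.

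The motif was in 1 of 10 RUNX1 windows at these genes, beside 24.2% of all RUNX1 summits. Over the whole list it was in 14.4% of RUNX1 summits whose peak overlaps a PTBP1 peak and in 38.9% of the others. Within 100 bases of the summit it was found for 2 of the 10 RUNX1 peaks (36.6% of the list), the second being MLLT1 at 55 bases, within 300 bases for 4 (56.7%), and anywhere in the peak for 5. The same letters were in 2 of 17 PTBP1 windows at these genes, beside 8.79% of all PTBP1 summits, namely at AFF1 intron 2 and DOT1L exon 28. With 10 windows such counts are small, and no match says only that these letters are not in the window.

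At the TSS, taken as 1 kb either side of the gene's annotated 5′ end, the 10 genes fell into 4 groups. KMT2A, AFF4, DOT1L and PBX3 had both peaks, 4 of 10 beside 17.3% of all protein-coding genes. MLLT1, AFF1 and MEN1 had PTBP1 alone, PSIP1 had RUNX1 alone, and MLLT3 and MEIS1 had neither. PTBP1 was thus at the TSS of 7 of 10 genes, beside 26.4%, and RUNX1 at 5 of 10, beside 21.3%. Each gene with any peak had one at its TSS. When the first base of the gene itself had to lie in the peak, PTBP1 was left at 4 genes, as MLLT1, MEN1 and PBX3 dropped out, and RUNX1 at 4, as PBX3 dropped out.

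**Figure D2:**
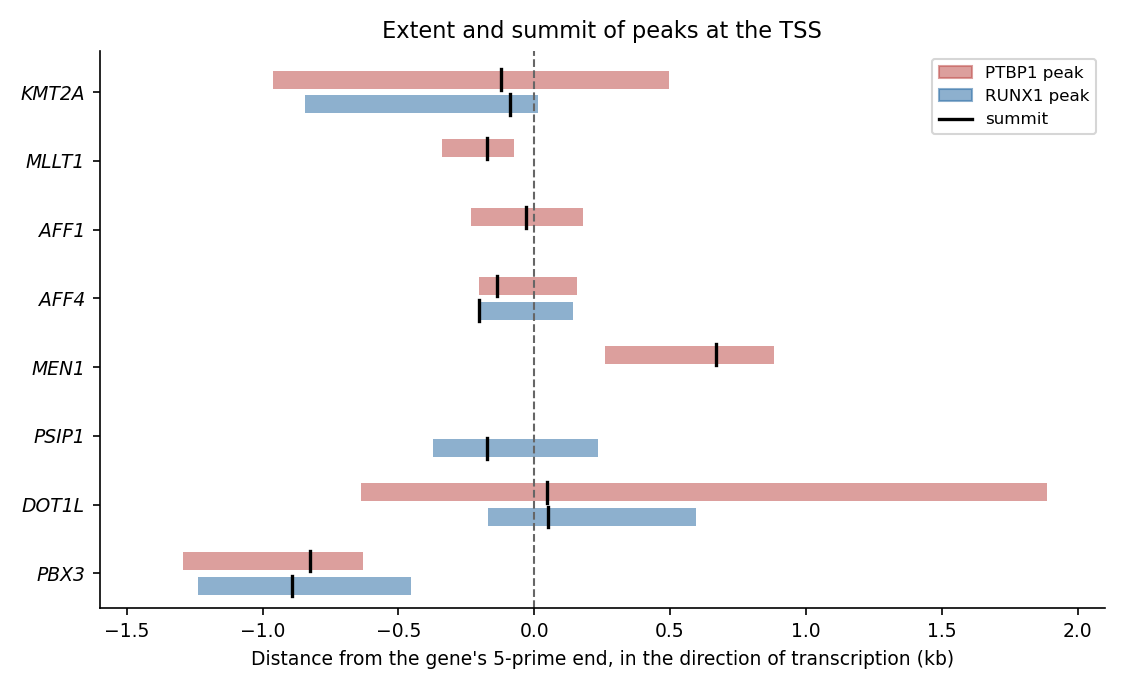
Extent (bars) and summit (black ticks) of PTBP1 and RUNX1 peaks at the TSS of the 8 genes that have one, by distance from the gene's 5′ end in the direction of transcription (kb). At KMT2A, AFF4 and DOT1L the peaks of both lists cover the 5′ end, and at PBX3 both lie upstream of it with summits at 827 and 893 bases.

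KMT2A, the methyltransferase that forms the amino-terminal part of the fusion protein, had 1 peak of each list, both over its promoter. The PTBP1 peak (chr11:118435496-118436953) had its summit 123 bases upstream of the 5′ end, with a fold enrichment of 21.5 from 36 fragments (95% Poisson interval 25.2 to 49.8). The RUNX1 peak (chr11:118435611-118436471) had its summit 89 bases upstream, with a fold enrichment of 12.0 from 15 fragments (8.40 to 24.7). The PTBP1 peak was among the upper peaks of its list, at percentile 81.4 by fold enrichment, and the RUNX1 peak was at percentile 37.3. The annotated noncoding gene ENSG00000255384 also starts here. No peak was found in the rest of the 90.4 kb gene (chr11:118436456-118526832), which has 36 exons, or in its flanks. The KMT2A promoter thus held both peaks, and the gene body listed none. Whether the peaks come from the normal copy, the fused copy or both cannot be told.

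MLLT3, or AF9, the YEATS-domain reader of acetylated histones whose gene is joined to KMT2A in MOLM-13, had no peak in its 281 kb (chr9:20341669-20622499) or 10 kb around. The nearest summits to its 5′ end were 61.7 kb away for PTBP1 and 61.6 kb for RUNX1, and both were at the TSS of FOCAD-AS1. Of the 926 protein-coding genes at least as long as MLLT3, 63.5% also had no peak of either list. Its paralog MLLT1, or ENL, had both. The PTBP1 peak of MLLT1 (chr19:6280048-6280313) was narrow, 266 bases, with its summit 172 bases upstream of the 5′ end and a fold enrichment of 11.0 from 18 fragments (10.7 to 28.4). It ended before the first base of the gene. The RUNX1 peak (chr19:6273668-6274192) was in intron 1, its summit 5957 bases from the 5′ end, with a fold enrichment of 15.8 from 20 fragments (12.2 to 30.9). The peaks of MLLT1 thus stood apart and did not overlap.

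AFF1 and AFF4 encode scaffolds of the super elongation complex, which releases paused RNA polymerase II, and AFF1 is itself a partner in other KMT2A fusions. At AFF4 the peaks of both lists were on the promoter, with PTBP1 ranking higher in its list than RUNX1 in its own. The PTBP1 peak (chr5:132963475-132963838) had its summit 137 bases upstream and a fold enrichment of 18.0 from 30 fragments (20.2 to 42.8). The RUNX1 peak (chr5:132963493-132963838) had its summit 203 bases upstream and a fold enrichment of 9.02 from 11 fragments (5.49 to 19.7), at percentile 15.2 of its list. Both peaks end at the same base, and the RUNX1 summit lies next to that edge. The divergent noncoding gene AFF4-DT starts there too. A further PTBP1 peak beyond the 3′ end of AFF4 (chr5:132866225-132866824), with a fold enrichment of 13.4, was at the TSS of GDF9 and UQCRQ and belongs to the window by distance only.

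AFF1 had peaks at more than one of its start sites. At the 5′ end there was a PTBP1 peak (chr4:86934769-86935183), its summit 30 bases upstream, with a fold enrichment of 9.88 from 16 fragments (9.15 to 26.0), and no RUNX1 peak. Within intron 2 of the canonical transcript, 71970 bases from the 5′ end, a PTBP1 peak (chr4:87006711-87007221) with a fold enrichment of 13.4 from 22 fragments overlapped a RUNX1 peak (chr4:87006810-87007231) with a fold enrichment of 12.0 from 15 fragments. The summits were 175 bases apart, and protein-coding AFF1 transcripts start at 3 distinct positions within 1 kb of these peaks. Counting the start of any protein-coding transcript as a TSS therefore adds AFF1 to the genes with both peaks, making 5 of 10. Another RUNX1 peak in intron 2 (chr4:86961301-86961809), 26333 bases from the 5′ end, had the lowest fold enrichment of the 10 RUNX1 peaks, 8.27 from 10 fragments (4.80 to 18.4), and no PTBP1 peak over it.

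**Figure D3:**
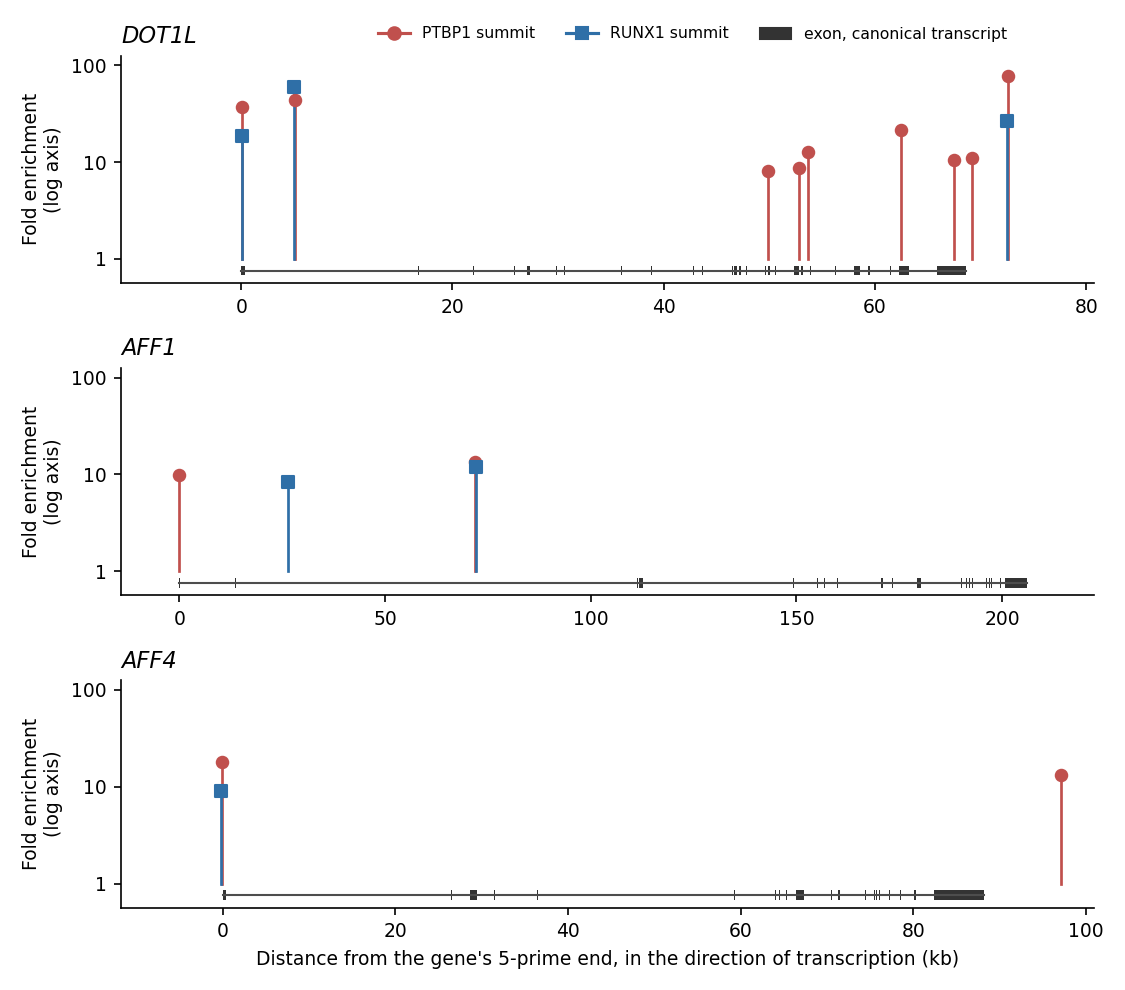
Summits of PTBP1 (circles) and RUNX1 peaks (squares) along DOT1L, AFF1 and AFF4, with height as fold enrichment (log axis), by distance from the gene's 5′ end in the direction of transcription (kb), and exons of the canonical transcript as boxes. In DOT1L the overlapping peaks are at the 5′ end, in intron 1 and beyond the 3′ end, while 6 further PTBP1 peaks between exon 18 and the 3′ flank stand without RUNX1.

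MEN1 and PSIP1 encode the tethers menin and LEDGF, which together hold KMT2A on chromatin, and each had 1 peak, from opposite lists. The PTBP1 peak of MEN1 (chr11:64810410-64811035) had its summit 669 bases inside the annotated gene, upstream of the canonical transcript, with a fold enrichment of 11.0 from 18 fragments (10.7 to 28.4). It covered 8 distinct start positions of protein-coding MEN1 transcripts. The nearest RUNX1 summit to MEN1 was 32.5 kb from its 5′ end, at the TSS of SF1, with a fold enrichment of 33.8. The RUNX1 peak of PSIP1 (chr9:15510759-15511369) had its summit 174 bases upstream of the 5′ end, with a fold enrichment of 13.5 from 17 fragments (9.90 to 27.2). The nearest PTBP1 summit to PSIP1 was 42.2 kb away, at the TSS of CCDC171. Neither absence can be read as an absence of binding, since a site under the calling threshold is not in a list.

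DOT1L, the H3K79 methyltransferase that MLLT1 and MLLT3 bind, was the gene with the most peaks and the tallest. At its TSS, the PTBP1 peak (chr19:2163297-2165820) had a fold enrichment of 36.6 from 62 fragments (47.5 to 79.5), and the RUNX1 peak (chr19:2163763-2164530) one of 18.8 from 24 fragments (15.4 to 35.7). The summits lay 46 and 50 bases past the 5′ end, in the 5′ UTR of exon 1, and AP3D1 starts on the opposite strand in the same window. In intron 1 the PTBP1 peak (chr19:2167968-2169582) reached 44.2 from 75 fragments (59.0 to 94.0) and the RUNX1 peak (chr19:2168254-2169429) 60.2 from 79 fragments (62.5 to 98.5). These intron 1 peaks were at percentiles 95.0 and 96.4 of their lists, no annotated gene start lay within 1 kb of either, and the summits, 5115 and 5009 bases from the 5′ end, were 106 bases apart.

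Farther along DOT1L only PTBP1 peaks were listed. They had summits in exon 18 (fold enrichment 8.14), intron 20 (8.72), intron 21 (12.8), exon 27 (21.5) and exon 28 (10.5), the last in the 3′ UTR, and one just downstream (11.0), near MIR1227. The exon 27 peak (chr19:2225195-2230623) was 5429 bases long, wider than 99.3% of the list, and overlapped 3 exons. The other 5 held 13 to 21 fragments each, at or below the whole-list median of 21. Past the 3′ end, a PTBP1 peak (chr19:2235379-2237380) with a fold enrichment of 76.7 from 131 fragments overlapped a RUNX1 peak (chr19:2235881-2236861) of 26.3 from 34 fragments. These lie at the TSS of PLEKHJ1 and SF3A2 and are counted at DOT1L by distance only.

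Few genes had as many peaks, counted in the gene and 10 kb either side. For DOT1L that count takes in the pair at the TSS of PLEKHJ1 and SF3A2, without which it would fall below both cut-offs given next. At least 9 PTBP1 peaks were found at 144 protein-coding genes (0.719%), of which 34 are among the 5200 at least as long as DOT1L, and at least 3 RUNX1 peaks at 652 (3.25%). The surroundings were dense too: within 500 kb of the DOT1L 5′ end there were 89 PTBP1 and 36 RUNX1 peaks and 28 protein-coding genes, against medians of 3, 4 and 13 over all protein-coding genes. These placed DOT1L at percentiles 98.6 and 99.6 of all protein-coding genes for local PTBP1 and RUNX1 peak number, its own peaks included, and the part of that density in its count was not tested.

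PBX3 and MEIS1, homeodomain partners of the HOXA proteins and targets of the fusion, differed from each other. PBX3 had both peaks at its start. The PTBP1 peak (chr9:125746052-125746713) had a fold enrichment of 25.6 from 43 fragments (31.1 to 57.9) and the RUNX1 peak (chr9:125746107-125746890) one of 27.1 from 35 fragments (24.4 to 48.7), the highest RUNX1 value at any of the 5 TSS. The summits were 827 and 893 bases upstream, neither peak reached the first base of PBX3, and the divergent noncoding gene PBX3-DT starts there. No other peak was found in the 220 kb gene. MEIS1 (chr2:66433452-66573869) had no peak, and the nearest summits of either list were 1205 kb from its 5′ end, at ACTR2. Among the 2415 protein-coding genes at least as long as MEIS1, 57.1% had no peak.

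Ordered by fragments at the TSS, PTBP1 was highest at DOT1L, followed by PBX3, KMT2A, AFF4, MLLT1 and MEN1 with equal counts, and AFF1. The Poisson interval of each overlapped that of its neighbour in this order, and the interval of DOT1L lay wholly above those of AFF4, MLLT1, MEN1 and AFF1. RUNX1 was highest at PBX3, followed by DOT1L, PSIP1, KMT2A and AFF4. There too all neighbours overlapped, and the interval of PBX3 lay above that of AFF4 alone. TSS peaks ranged from 9.88 to 36.6 in fold enrichment for PTBP1, beside a median of 15.1 over all 4490 PTBP1 peaks at a coding TSS, and from 9.02 to 27.1 for RUNX1, beside a median of 15.0 over 3558.

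Overlap of the lists at these genes is set beside that of the lists as a whole. A RUNX1 peak lay over 7 of the 17 PTBP1 peaks (41.2%, Wilson 95% interval 21.6 to 64.0), beside 49.2% of all PTBP1 peaks. A PTBP1 peak lay over 7 of the 10 RUNX1 peaks (70.0%, 39.7 to 89.2), beside 60.2% of all RUNX1 peaks. Both whole-list shares lie inside the intervals, which are too wide to show that the shares are close. The intervals also take peaks as independent, though DOT1L holds 9 of the 17 and 3 of the 10. Without DOT1L the shares were 50% and 57.1%. The overlapping peaks form 7 pairs, at the TSS of KMT2A, AFF4, DOT1L and PBX3, in AFF1 intron 2, in DOT1L intron 1 and downstream of DOT1L. Their summits were 4 to 175 bases apart (median 66), beside a median of 84 over all 4691 pairs, and 7 of 7 were within 200 bases, beside 77.1% of all pairs.

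In most of these pairs PTBP1 ranked higher in its list than RUNX1 did. The percentile of RUNX1 in its list was below that of PTBP1 in 6 of 7 pairs, beside 65.4% of all pairs, with DOT1L intron 1 the exception. The ratio of RUNX1 to PTBP1 fold enrichment ranged from 0.343 downstream of DOT1L and 0.501 at AFF4 to 1.06 at PBX3 and 1.36 in DOT1L intron 1. Its median was 0.559, beside 0.934 over all pairs. The lists come from different antibodies and libraries, with usual backgrounds of 0.72 fragments for PTBP1 and 0.33 for RUNX1. The ratio is therefore not a measure of relative binding. Pairs of the same gene are not independent, and 3 of the 7 are from DOT1L.

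**Figure D4:**
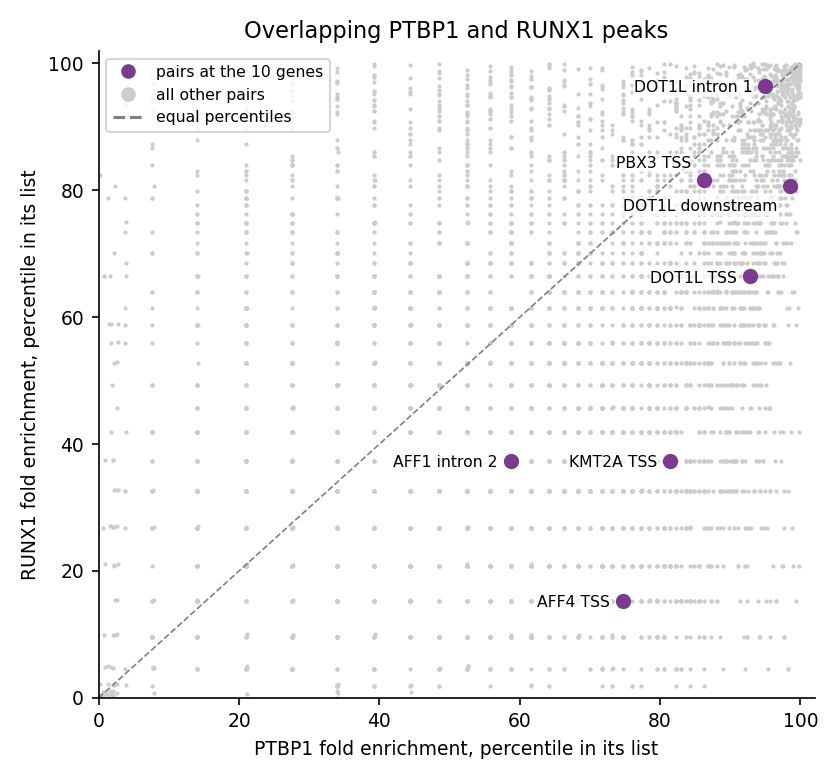
Percentile of fold enrichment in its own list for the PTBP1 peak (horizontal) and the RUNX1 peak (vertical) of each overlapping pair, with the 7 pairs at these genes labelled, all other pairs in grey, and equality dashed. Of the 7 pairs, 6 lie below the line and DOT1L intron 1 lies above it.

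Features of the promoters, which were not used to choose the genes, were also set beside those of all protein-coding genes. Within 250 bases of the 5′ end, G and C made up a median of 75.1% of bases (range 46.7 to 80.8), beside 61.7% over all protein-coding genes, and 8 of 10 were above that median. The ratio of observed to expected CpG had a median of 0.892 (0.670 to 1.02), beside 0.721, again with 8 of 10 above. MLLT3 and MEIS1, which had no peak, had the lowest CpG ratios, 0.670 and 0.677. MEN1 was lowest in G and C, at 46.7%, around an annotated 5′ end that neither its peak nor its canonical transcript reaches. A gene of the opposite strand starts within 1 kb of AFF4, DOT1L, MEIS1 and PBX3, 4 of 10 beside 26.6% of all protein-coding genes. Of the 4 genes with both peaks at the TSS, 3 had such a start, beside 48.0% of the 3469 protein-coding genes with both.

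The wider network was taken as 46 further genes in 4 lists. Both peaks at the TSS were found at 20 of them, beside 17.3% of all protein-coding genes, and 8 had no peak, beside 53.3%. Partners of KMT2A and related methyltransferases had both at 7 of 8: WDR5, RBBP5 and ASH2L, core subunits of these complexes, HCFC1, a cofactor, and the methyltransferases KMT2B, SETD1A and SETD1B. Only DPY30 had no TSS peak, though each list had 1 in its window. Partners in elongation and in the DOT1L complex had both at 7 of 12: the elongation factors ELL, ELL2 and ELL3, the kinase CDK9 with its cyclins CCNT1 and CCNT2, and MLLT10, a DOT1L-binding partner of other KMT2A fusions. AFF2, EAF1 and EAF2 had no peak. The PAF1 complex, which binds KMT2A and travels with RNA polymerase II, had both at 2 of 6, LEO1 and SKIC8, and PAF1 had PTBP1 alone.

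Of 20 other genes known as targets of KMT2A fusions, 4 had both peaks at the TSS, close to the background share: MYB, JMJD1C, CPEB2 and CDKN2C. HOXA5 had PTBP1 alone and BCL2 had RUNX1 alone, and MEF2C, SENP6, PROM1 and HMGA2 had no peak. The strongest pairs in the network, by summed percentile, were at KMT2B, with fold enrichments of 38.4 for PTBP1 and 38.3 for RUNX1, at ELL2 with 38.4 and 34.6, and at CDK9 with 27.3 and 47.4. Each of these RUNX1 values exceeded that of every TSS among the 10 genes, but these pairs were picked partly by their RUNX1 percentile. For PTBP1, CDK9 was below the DOT1L TSS, at 36.6. Other network pairs were weak, with RUNX1 at 9.02 at the TSS of WDR5 and SETD1B. The lists are small and were not tested against each other.

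**Figure D5:**
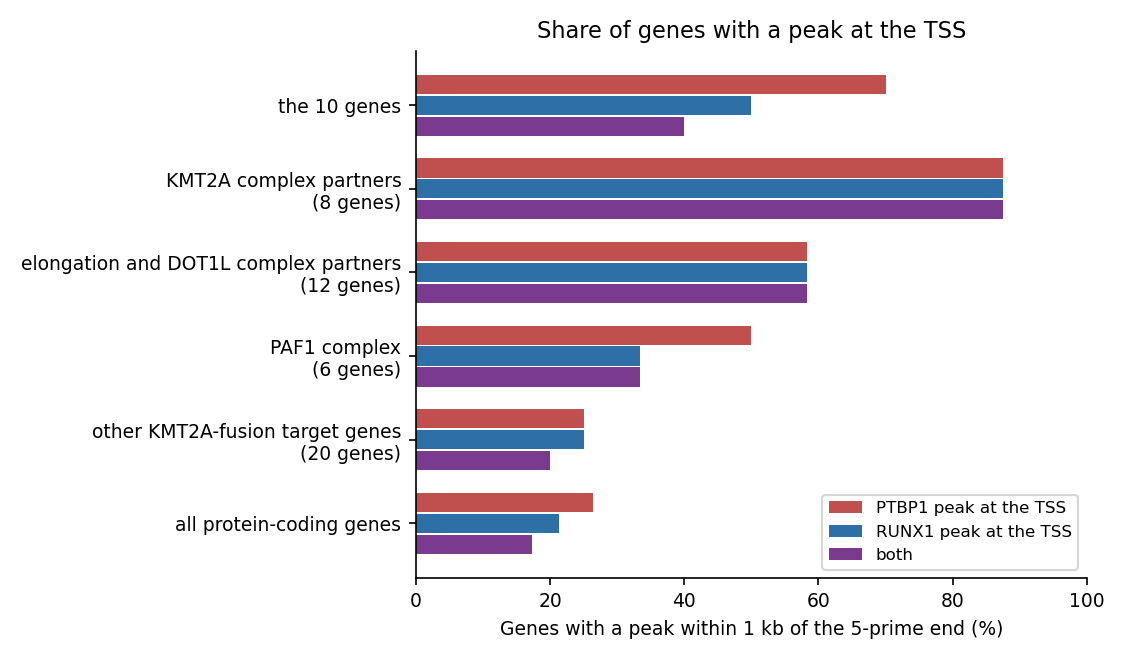
Share of genes with a PTBP1 peak, a RUNX1 peak or both within 1 kb of the 5′ end (%), for the 10 genes, the 4 network lists and all protein-coding genes. The 10 genes have 4 of 10 with both, the KMT2A complex partners, a list that includes related methyltransferases, 7 of 8, and the other fusion targets 4 of 20, beside 17.3% of all protein-coding genes.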

How the data were processed

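PTBP1, RUNX1, H3K27me3 and IgG were profiled by the authors in MOLM-13 cells. Per the study's methods, paired reads were aligned to hg38 with Bowtie2, filtered by mapping quality and deduplicated, and MACS3 called peaks (q-value threshold 1e-07). The 2 deposited lists name a target but neither an assay nor replicates. They were taken as CUT&Tag, and whether replicates were pooled is not given in the sources used here. Submitters' notes name bedtools 2.30.0.

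As deposited, fold enrichment is a ratio of fragments at the summit to background, each with 1 added. The deposited −log10 p-value comes from a Poisson model, the deposited −log10 q-value from its adjustment, and the deposited score is 10 times the latter cut to a whole number in all 9370 and 7688 rows. Fold and −log10 p-value were solved for whole fragments, with a largest residual of 0.00134. Library totals were not used here, so depth enters through these fragments. A peak below the threshold is missing from a list.

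Genes, exons and UTRs (canonical transcript) came from GENCODE version 44, with windows of 10 kb around the gene, 1 kb around the TSS and 50 bases around the summit for motifs. All 10 genes are named with every peak. Of the network lists, genes with both peaks at the TSS are named, with fold enrichments for the 3 highest by summed percentile. A gene of the elongation list is not reported here and was left out of its counts. The genes, lists and descriptions were chosen with earlier results of these data known, so no tests were made. Shares have Wilson and fragments exact Poisson intervals at 95%. PCR duplicates were removed upstream, but fragments are not counted molecules. Alternatives covered the gene window, the TSS rule, peak thresholds, the definition of overlap and the motif window. The procedures were checked on simulated data. Scripts ran in Python 3.11.15 (matplotlib 3.10.9, scipy 1.17.1, pandas 2.3.3, numpy 2.4.6).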

Additional observations from a re-analysis of the deposited data

How the results depend on the processing

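Of 69 alternative values, 64 stayed close to the value reported, within 1.5 times for a count and within its interval for a share. The lowest −log10 q-value of these peaks was 10.1, so a threshold of 10 could change nothing. A −log10 q-value of at least 15 and a fold enrichment of at least 10 each kept 14 PTBP1 and 8 RUNX1 peaks. The intervals of the shares are wide, so staying inside them says little. The 5 values that moved further follow, with some that stayed close named as such. With 50 kb either side of each gene in place of 10 kb, peaks numbered 40 for PTBP1 and 19 for RUNX1. That window takes in neighbouring genes, and the number of genes with a peak stayed close, at 8 in each list. With the first base of the gene required to lie in the peak, PTBP1 was at the TSS of 4 genes in place of 7. Without DOT1L, an alternative chosen after seeing the data, 8 PTBP1 peaks remained of 17. The overlapping shares without it, 50% for PTBP1 and 57.1% for RUNX1, stayed inside their intervals. With TGTGGT alone, 0 of 10 RUNX1 windows held the motif. Genes with both peaks at the TSS ranged from 3 to 5 over the alternatives. No paired analysis was possible because each target has a single peak list and no comparison was tested.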

Other observations

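Known fusion targets outside the 10 genes also held peaks, at the TSS or elsewhere. The genes named next were chosen after their values were seen. Of the 20 other targets, 12 had a PTBP1 peak and 15 a RUNX1 peak in the gene or within 10 kb, beside 39.4% and 36.8% of all protein-coding genes. These counts include TSS peaks, which 5 genes had for PTBP1 and 5 for RUNX1. Neighbouring HOXA genes can count the same peak more than once. FLT3, a receptor tyrosine kinase of leukemic progenitors, had 1 RUNX1 peak with a fold enrichment of 25.6 and no PTBP1 peak. CDK6, a cell cycle kinase, had 3 RUNX1 peaks, the highest at 24.1, and 1 PTBP1 peak at 10.5. RUNX2, a relative of RUNX1, had 1 peak of each list, at 22.6 for RUNX1 and 17.4 for PTBP1. None of these peaks was within 1 kb of the gene's 5′ end. HOXA9, the best known target, shared its neighbouring peaks with HOXA7 and HOXA10 in the cluster, the highest at 11.6 for PTBP1 and 8.27 for RUNX1. No peak was within 1 kb of the annotated 5′ end of HOXA9. The annotated HOXA9 gene overlaps HOXA10, and the starts of its other transcripts were not examined.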
